A study of Solanum lycopersicum with 31 samples.

Results

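The homeobox-leucine zipper (HD-Zip) genes of tomato are described here across 8 groups of leaf RNA libraries. A gene was a member if its annotated product name contains "homeobox-leucine zipper", and 66 of 31142 genes met that rule. By product name, 9 members belong to class II, 20 to class I, 6 to class III and 30 to class IV. LOC101264045 (HB2-like) was left unclassified. A further 2 genes that carry HD-Zip in their names, SLHZ24 and THOM1, do not match the wording and were not counted as members.

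Poly(A)-selected RNA was sequenced from leaves of wild-type tomato (Solanum lycopersicum, cultivar Moneymaker) raised in a growth chamber with incandescent and ceramic metal halide light. Filters of 3 organic solar cell (OSC) blends were compared with a spectrally neutral control filter (C). The blends, each an electron donor polymer with an acceptor, were PTB7-Th:IEICO-4F (PI), FTAZ:IT-M (FI) and FTAZ:PCBM (FP). In one experiment the height was controlled (HC), and in the other the photosynthetic photon flux density was controlled (PC). The groups are therefore PI_HC, FI_HC, FP_HC and C_HC, and PI_PC, FI_PC, FP_PC and C_PC. Each group held 4 libraries from individual plants except PI_HC, which held 3, numbered 1, 3 and 4.

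HD-Zip proteins are transcription factors found in plants in which a DNA-binding homeodomain is followed by a leucine zipper that joins them into dimers. In Arabidopsis, class II includes ATHB-2, also named HAT4, whose transcript increases quickly in light poor in red relative to far-red and which promotes elongation in shade. In the same species, class I genes such as ATHB-7 and ATHB-12 respond to water deficit and abscisic acid, class III genes such as REVOLUTA set leaf polarity and vascular pattern under control of a conserved microRNA, and class IV genes such as GLABRA 2 and MERISTEM L1 act in the epidermis. The comparisons below set each solar cell filter against its control filter, the PI blend against the mean of the 2 FTAZ blends, and the HC experiment against the PC experiment.

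Library totals lay between 13671052 and 15210356 gene counts, so a floor of 3 counts corresponds to 0.197 to 0.219 counts-per-million units (CPM). CPM values here use library sizes scaled by the trimmed mean of M-values (TMM). A filter on low counts left 16209 genes for testing. Genes with 2 or more annotated transcripts are poorly measured, because the authors counted each exon record separately and a fragment that touches 2 records was counted for none. Such genes number 7197 and hold 1.26% of the counts. The leaf label fitted the marker genes: all 19 mesophyll marker genes had counts, and their summed level was 17250 to 70770 CPM over the 31 libraries. For 3 libraries the file identifier conflicts with the label: C_PC 4 has the code of the other PI_PC libraries, PI_PC 4 that of FP_PC, and FP_PC 4 that of PI_HC. Many results that rest on these labels are given with and without the 3 libraries, and the others with all 31 libraries only. All 3 are PC libraries, so comparisons within HC lose no library without them and change only through the fit shared by all libraries.

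Of the 66 members, 29 passed the low-count filter: 7 of 9 in class II, 11 of 20 in class I, 4 of 6 in class III, 6 of 30 in class IV and the unclassified gene. Another 19 had no count in any library, 15 of them in class IV, and the remaining 18 had counts but stayed below the filter. The highest mean count among the untested members was 3.94 per library. Of the untested members, 11 have several annotated transcripts, so their low counts do not show low expression. The untested class II genes were HOX3 (LOC101252281), with a mean of 2.55 counts per library, and HAT22-like (LOC101262734), with 0.0323.

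Levels per length of exon were compared among the 28 tested members with 1 annotated transcript. HAT5-like (VAHOX1) stood highest at 556 CPM per kb averaged over all libraries, followed by ATHB-6 (LOC101263368) at 415 CPM per kb, both of class I. HAT22 (LOC101246982) was the highest of class II at 84.8 CPM per kb. HAT4 (LOC101249931) ranked 8 of 28 at 22.1 CPM per kb. Levels per kb are understated for genes with many short exons, because fragments that touch 2 exon records were not counted. Tested class II genes have 3 or 4 exon records and class III genes 18, so the classes as a whole were not compared. The ranks of single genes across classes carry the same limit.

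**Figure D1:**
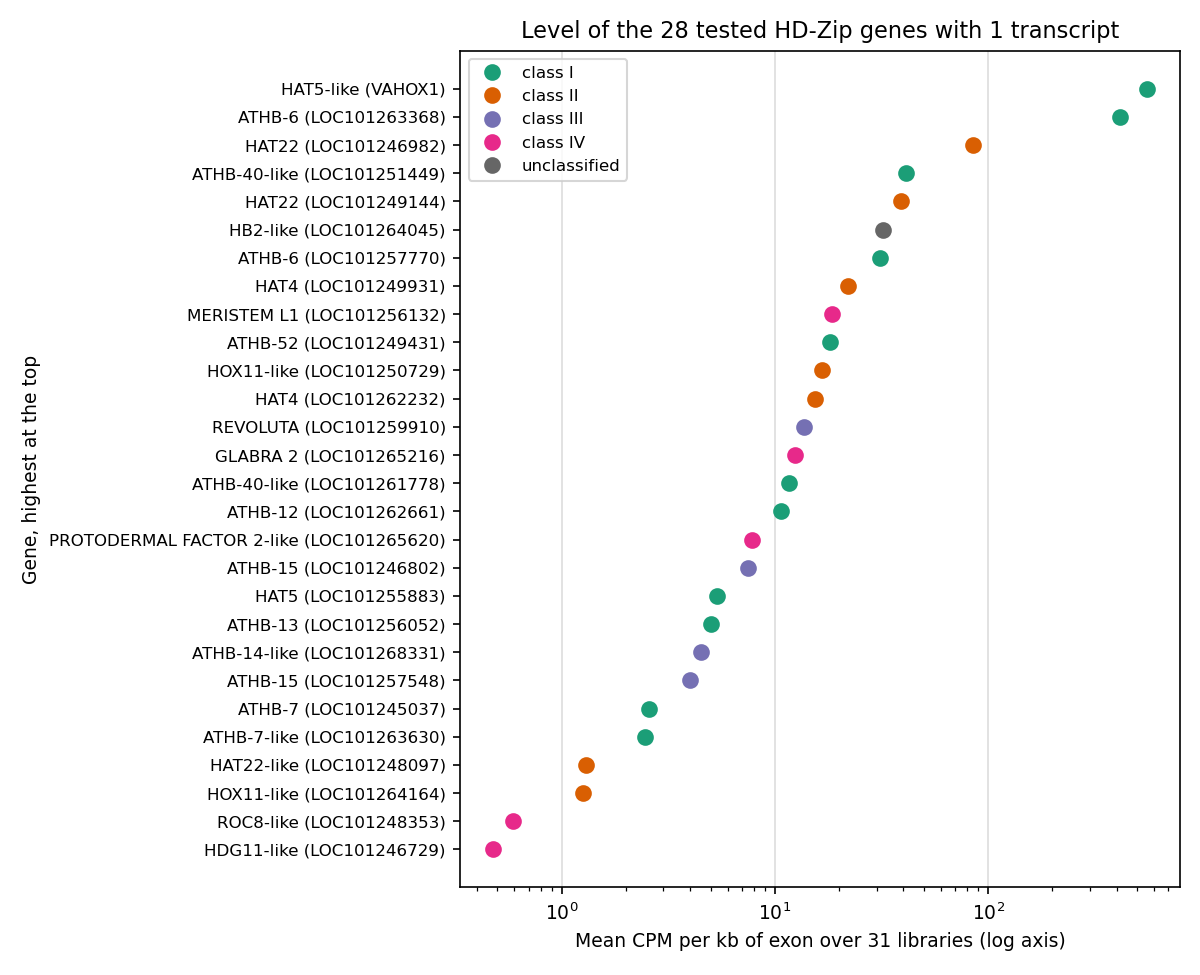
Mean level of the 28 tested HD-Zip genes with 1 annotated transcript, in CPM per kb of exon over 31 libraries (x axis, log scale), ordered from the highest gene to the lowest (y axis) and coloured by class. VAHOX1 at 556 and ATHB-6 at 415 CPM per kb stand apart, and the class II genes are spread between 1.26 and 84.8 CPM per kb.

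HAT4 (LOC101249931) lies on chromosome 6 of build SL3.0 at positions 38967783 to 38969717 on the minus strand and has 4 exon records that sum to 1346 bp. Its level was 81.2, 58.6 and 82.8 CPM in the PI_HC libraries, against 13.2, 11.6, 21.4 and 17.1 CPM in the C_HC libraries. In the FTAZ blends of the same experiment it was 17.7, 13.4, 12.8 and 27.99 CPM in FI_HC and 22.8, 19.3, 15.9 and 21.3 CPM in FP_HC. Every PI_HC library was above every other HC library, while the FI_HC and FP_HC values overlapped those of C_HC.

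HAT4 rose 4.69-fold in PI_HC relative to C_HC (log2 fold change 2.23, SE 0.46, edgeR adjusted p = 0.0105). Against the mean of FI_HC and FP_HC it rose 3.93-fold (log2 fold change 1.98, SE 0.38, edgeR adjusted p = 0.0169). In the first comparison the call was lost without PI_HC 4 (edgeR adjusted p = 0.0646), and in the other without PI_HC 1 (0.0614) or PI_HC 4 (0.261), with fold changes between 1.89 and 2.14 on the log2 scale. The increase was present along the whole gene: in each of the 4 exon records the lowest PI_HC value exceeded the highest C_HC value, and the ratio of the group means was 5.27, 3.60, 3.15 and 4.97 from the 5′ record to the 3′ record.

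In the PC experiment HAT4 varied widely within groups. It was 28.4, 54.3, 10.1 and 13.8 CPM in PI_PC, 13.8, 40.6, 56.8 and 25.8 CPM in FI_PC and 58.2, 28.2, 26.2 and 47.7 CPM in FP_PC, against 17.8, 33.6, 10.2 and 18.7 CPM in C_PC. All 4 PC groups overlapped, and single libraries of PI_PC, FI_PC and FP_PC reached 54.3 to 58.2 CPM, close to the lowest PI_HC library. The log2 fold change to C_PC was 0.41 (SE 0.43, edgeR adjusted p = 0.693) in PI_PC, 0.77 (SE 0.43, 0.397) in FI_PC and 1.00 (SE 0.43, 1) in FP_PC. With the 3 libraries in doubt left out, these were 0.59, 0.74 and 0.87, and none was called. FP_PC 4, whose identifier carries the PI_HC code, had 47.7 CPM, below every PI_HC library.

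Ordered by group mean, HAT4 stood at 74.2 ± 13.5 CPM in PI_HC (SD, n = 3), 40.1 ± 15.5 in FP_PC, 34.25 ± 18.6 in FI_PC, 26.7 ± 20.1 in PI_PC, 20.1 ± 9.79 in C_PC, 19.8 ± 2.98 in FP_HC, 17.98 ± 7.03 in FI_HC and 15.8 ± 4.38 in C_HC (SD, n = 4 each). Of these neighbours, PI_HC and FP_PC did not overlap, by the margin between 58.6 and 58.2 CPM, and all the others overlapped. The difference between the PI effect in HC and that in PC was 1.82 on the log2 scale (SE 0.63) and was not called (edgeR adjusted p = 0.158, and 0.0529 to 0.364 over 23 alternative fits).

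**Figure D2:**
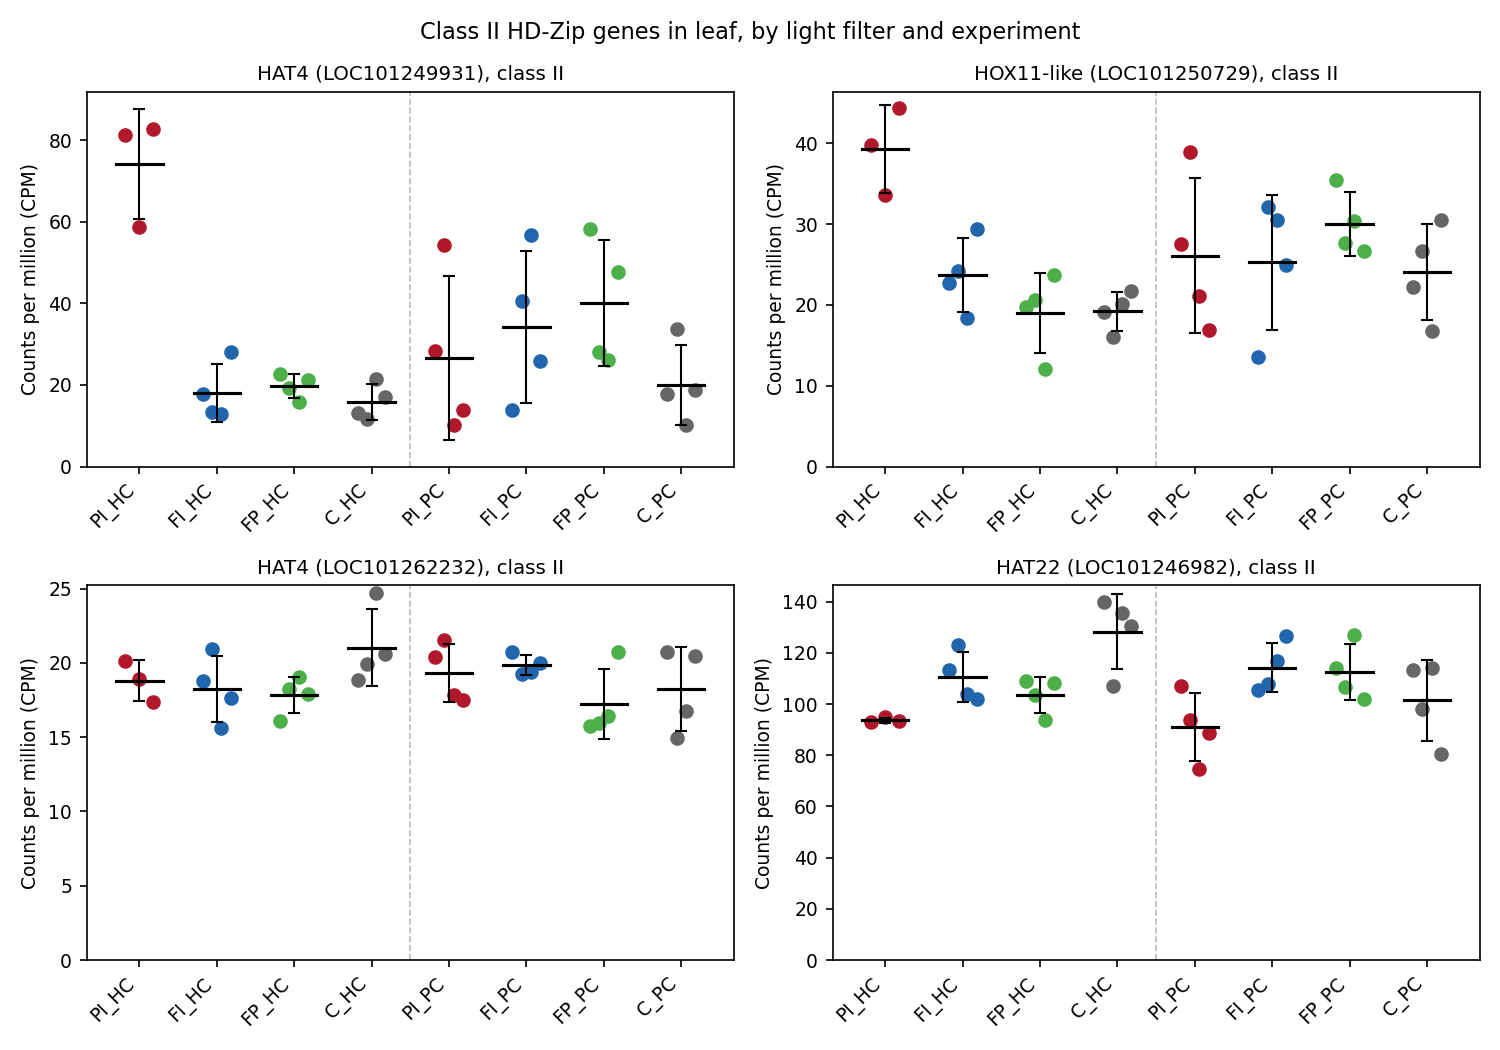
CPM of 4 class II genes in each library (points), with group means (bars) and SD (whiskers), for the HC groups left of the dashed line and the PC groups right of it. HAT4 (LOC101249931) and HOX11-like (LOC101250729) have their highest group mean in PI_HC, HAT4 (LOC101262232) stays between 14.95 and 24.7 CPM in all 31 libraries, and HAT22 (LOC101246982) is lower in every PI_HC library than in any C_HC library.

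HOX11-like (LOC101250729) is the class II gene with the pattern most like that of HAT4. It lies on chromosome 1 of SL3.0 at 81131049 to 81133313 on the plus strand, and is named after a rice class II gene. Its level was 39.8, 33.6 and 44.4 CPM in PI_HC, against 19.1, 15.98, 20.1 and 21.7 CPM in C_HC. Every PI_HC library was above every C_HC, FI_HC and FP_HC library, the highest of which was 29.4 CPM. HOX11-like rose 2.04-fold in PI_HC relative to C_HC (log2 fold change 1.03, SE 0.26, edgeR adjusted p = 0.036). The ratio of the group means was 1.82 to 2.31 over its 4 exon records. That call was lost in 6 of 7 fits with 1 library left out, namely those without PI_HC 1, PI_HC 3, PI_HC 4, C_HC 1, C_HC 2 or C_HC 3 (edgeR adjusted p = 0.0542 to 0.195), while the log2 fold change stayed between 0.93 and 1.13. Against the mean of FI_HC and FP_HC it was higher by 0.89 on the log2 scale (SE 0.23, edgeR adjusted p = 0.0863), which passed the threshold without the 3 libraries in doubt (0.0375). That fit lost no HC library, and the difference stayed at 0.89 with an SE of 0.21.

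Over the 31 libraries, the log2 CPM of HOX11-like had the highest Pearson r with that of HAT4 among 16208 tested genes (r = 0.844, Spearman rho = 0.853). The relation did not rest on PI_HC: without its 3 libraries r was 0.781 over 28 libraries. It was 0.865 over the 15 HC libraries, 0.817 over the 16 PC libraries, 0.869 without the 3 libraries in doubt and 0.796 without the 2 libraries farthest from the HAT4 median. Deviations of each library from its own group mean gave r = 0.801, so that plants of 1 group that were high in HAT4 were high in HOX11-like. Libraries of the same group share filter and experiment, and the gene was picked for its r, so these are descriptions.

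**Figure D3:**
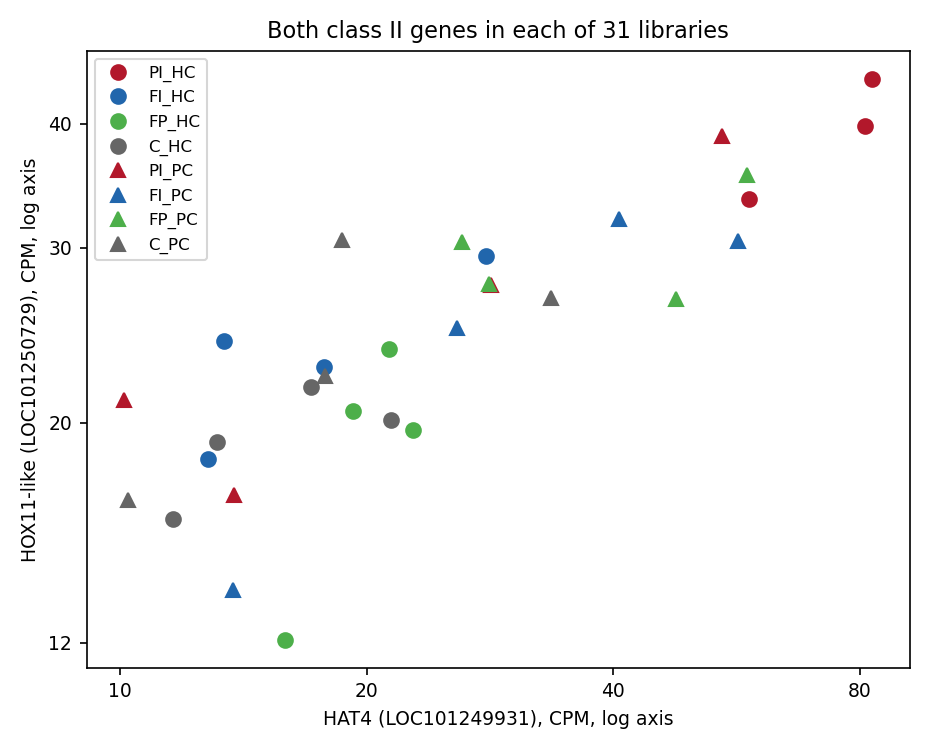
HOX11-like (LOC101250729) against HAT4 (LOC101249931) in CPM, both axes on a log scale, with 1 point for each of 31 libraries, coloured by filter and shaped by experiment. The points follow a single band (r = 0.844), with PI_HC at its upper end and PC libraries of PI, FI and FP reaching 54.3 to 58.2 CPM of HAT4.

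The next genes by likeness to HAT4 were not HD-Zip genes. U-box domain-containing protein 11 (LOC101256774) had r = 0.836, zinc finger CCCH domain-containing protein 20 (LOC101268596) 0.819, a CONSTANS-like protein (LOC100191137) 0.790 and protein MARD1 (LOC101260079) 0.781. Their group means were 194.2, 87.2, 151 and 6.85 CPM in PI_HC, against 122, 41.4, 84.3 and 2.62 CPM in C_HC. These genes were chosen for likeness over libraries that include both groups, so the difference is a description and is given no test.

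The other class II genes did not follow HAT4. The gene on chromosome 8 that also carries the name HAT4 (LOC101262232) averaged 18.8 ± 1.41 CPM in PI_HC (SD, n = 3), against 21.03 ± 2.56 CPM in C_HC (SD, n = 4). Its group means differed by a factor of 1.22 over all 8 groups, against 4.69 for the HAT4 gene on chromosome 6, and its r with that gene was -0.007. The HOX11-like gene on chromosome 10 (LOC101264164) was low, at 1.83 ± 0.61 CPM in PI_HC (SD, n = 3), against 1.31 ± 0.47 CPM in C_HC (SD, n = 4), with r = -0.010. The genes of each pair share a product name and differ in chromosome, and the 2 HAT4 genes differ in pattern across these libraries. LOC101264164 had a mean of 24.5 counts per library. Its log2 fold change of PI_HC over C_HC was 0.48, with a 95% interval of -0.51 to 1.47. That interval includes the 1.03 of LOC101250729, so a difference in pattern between the HOX11-like genes was not shown. Whether fragments were shared between such copies was not tested.

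HAT22 (LOC101246982), on chromosome 2 at 53787558 to 53789024, is named after an Arabidopsis class II gene linked to growth under abscisic acid. It had 93.1, 94.9 and 93.2 CPM in PI_HC, against 139.8, 107, 136 and 131 CPM in C_HC. Every PI_HC library was below every C_HC library. The log2 fold change was -0.45 (SE 0.13) and missed the threshold (edgeR adjusted p = 0.0522), which it passed without the 3 libraries in doubt (0.0217) and in DESeq2 (0.0178). Leaving out the 3 removed no HC library, and the fold change stayed at -0.45 with an SE of 0.11. In the PC experiment HAT22 had 107, 93.6, 74.8 and 88.6 CPM in PI_PC, against 105.7 to 126.5 CPM in FI_PC and 102 to 127 CPM in FP_PC. Relative to the mean of those 2 blends it fell by 0.32 on the log2 scale (SE 0.10, edgeR adjusted p = 0.0427), with the highest PI_PC library inside the range of the other blends. Leaving out 1 library took the adjusted p to between 0.0507 and 0.267 in 9 of 12 fits. Those were the fits without FI_PC 2, 3 or 4, PI_PC 2, 3 or 4, or FP_PC 1, 2 or 3. The call was also lost in a fit to the compared groups alone. Relative to C_PC, which had 80.5 to 114 CPM, the log2 fold change in PI_PC was -0.16 (SE 0.11, edgeR adjusted p = 0.54). It was -0.24 (edgeR adjusted p = 0.137) without the 3 libraries in doubt.

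The other HAT22 gene (LOC101249144), on chromosome 2 at 36161963 to 36163520, depended on the libraries in doubt. It had 43.3, 80.5, 75.2 and 30.3 CPM in PI_PC, against 37.4, 38.8, 38.1 and 63.0 CPM in C_PC. PI_PC 4 was the lowest of its group and C_PC 4 the highest of its own, and these are the libraries with conflicting identifiers. The log2 fold change was 0.37 (SE 0.21, edgeR adjusted p = 0.428) with all libraries and 0.80 (SE 0.17, 0.000985) without them. HAT22-like (LOC101248097) was low in all groups, with 1.46 to 3.03 CPM in PI_PC, against 0.83 to 2.13 CPM in C_PC. Its log2 fold change was 0.66 (SE 0.35, edgeR adjusted p = 0.388) with all libraries and 1.17 (SE 0.39, 0.0253) without the 3.

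Among class I genes, ATHB-40-like (LOC101251449) had the widest spread of all tested members, with group means that differed by a factor of 7.18. It is the only one of 4 neighbouring genes named ATHB-40-like or ATHB-21-like with substantial counts. The 4 lie within 31.3 kb of chromosome 3, at 5848710 to 5879991, with 1 other annotated gene between them. Over all libraries together LOC101251449 had 24176 counts, against 73 for LOC101250869 and 0 for LOC101251158 and LOC101254766. Arabidopsis ATHB-40 and its close relatives act in the control of axillary bud growth.

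ATHB-40-like (LOC101251449) had 107, 160.2, 260.5 and 60.6 CPM in PI_PC, against 25.1, 14.3, 22.04 and 20.6 CPM in FI_PC and 74.7, 48.8, 35.01 and 21 CPM in FP_PC. All PI_PC libraries but PI_PC 4 were above every FI_PC and FP_PC library. The gene rose 4.85-fold in PI_PC relative to the mean of the FTAZ blends (log2 fold change 2.28, SE 0.44, edgeR adjusted p = 0.0022). The call held in all 20 alternative fits, with log2 fold changes of 1.86 to 2.54, and was 2.42 (SE 0.33, edgeR adjusted p = 2.16e-05) without the 3 libraries in doubt.

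The comparison of ATHB-40-like (LOC101251449) with the control filter turned on the doubtful labels. C_PC had 26.3, 27.8, 24.4 and 163.5 CPM, so that C_PC 4, whose identifier carries the PI_PC code, lay within the PI_PC range and the other 3 libraries lay below all of PI_PC. The log2 fold change of PI_PC over C_PC was 1.28 (SE 0.54, edgeR adjusted p = 0.261) with all libraries and 2.75 (SE 0.44, 0.000127) without the 3. In the HC experiment the gene had 25.8, 74.1 and 27.4 CPM in PI_HC, against 20.3 to 38.9 CPM in C_HC, and was not called (log2 fold change 0.51, SE 0.58, edgeR adjusted p = 0.730). Summed mesophyll markers ranged from 17250 to 70770 CPM in PI_PC and from 17670 to 60300 CPM in C_PC, and vascular markers from 6.49 to 56.5 CPM and from 8.23 to 35.5 CPM. Their part in the PC results was not tested.

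**Figure D4:**
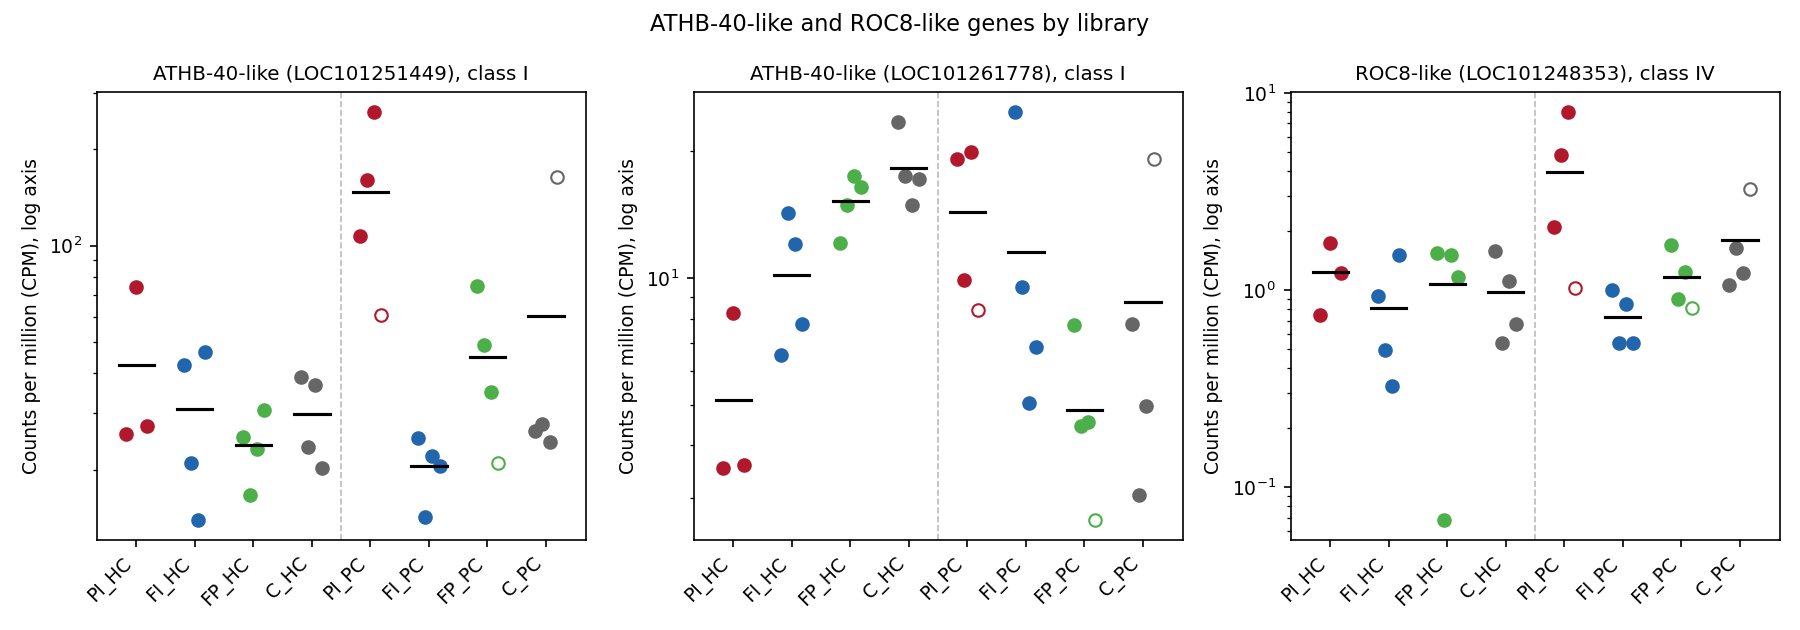
CPM (y axis, log scale) of 2 ATHB-40-like genes and ROC8-like in each library, by group, with the group mean as a bar. Open circles mark the libraries labelled C_PC 4, PI_PC 4 and FP_PC 4. For LOC101251449 the open C_PC circle, at 163.5 CPM, lies among the PI_PC points, and the open PI_PC circle, at 60.6 CPM, is the lowest of its group.

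The ATHB-40-like gene on chromosome 2 (LOC101261778), at 35472034 to 35474089, ran against HAT4. Its r with HAT4 over the 31 libraries was -0.607, the lowest of the tested members and rank 16161 of 16208 genes. It had 3.54, 8.24 and 3.60 CPM in PI_HC, against 23.5, 17.5, 14.9 and 17.2 CPM in C_HC, and every PI_HC library was below every C_HC library. The log2 fold change was -1.83 (SE 0.53) and missed the threshold (edgeR adjusted p = 0.0684), which it passed without the 3 libraries in doubt (0.0179) and in DESeq2 (0.0132). Leaving out the 3 removed no HC library, and the fold change stayed at -1.83 with an SE of 0.44.

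In FI_HC, LOC101261778 had 6.56, 14.2, 12.02 and 7.76 CPM, also below every C_HC library, without a call (log2 fold change -0.85, SE 0.46, edgeR adjusted p = 0.998). In the PC experiment it had 19.2, 9.88, 19.9 and 8.39 CPM in PI_PC, against 7.77, 3.05, 4.97 and 19.2 CPM in C_PC, and the groups overlapped. The PI effect was thus -1.83 in HC and 0.70 (SE 0.47) in PC on the log2 scale. The difference of -2.53 (SE 0.70) was not called with all libraries (edgeR adjusted p = 0.0794) and was called at -3.46 (SE 0.64, 0.00101) without the 3 in doubt.

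Other class I genes changed less. VAHOX1 had 658, 836, 731 and 417 CPM in PI_PC, against 927, 939, 1218 and 1021 CPM in FI_PC and 1053, 863, 809 and 729 CPM in FP_PC. It fell by 0.51 on the log2 scale in PI_PC relative to the mean of those blends (SE 0.14, edgeR adjusted p = 0.0226), with overlapping libraries, and was not called without PI_PC 3 (edgeR adjusted p = 0.054), without PI_PC 4 (0.0666) or in a fit to the compared groups alone (0.115). Without the 3 libraries in doubt the decrease was 0.38 (edgeR adjusted p = 0.0352). Relative to C_PC, the log2 fold change of VAHOX1 in PI_PC was -0.25 (SE 0.16, edgeR adjusted p = 0.492). It was -0.06 (edgeR adjusted p = 0.796) without the 3 libraries. Every FI_PC library was above every C_PC library, without a call (log2 fold change 0.39, SE 0.16, edgeR adjusted p = 0.224). ATHB-7 (LOC101245037) had 1.13 to 1.66 CPM in PI_HC, against 2.49 to 3.51 CPM in C_HC, with no overlap and no call (log2 fold change -1.09, SE 0.39, edgeR adjusted p = 0.152). ATHB-52 (LOC101249431) had 7.95, 12.7, 19.02 and 10.3 CPM in FI_PC, against 3.92, 8.03, 5.12 and 5.98 CPM in C_PC. It was 1.12 higher on the log2 scale (SE 0.35), above the threshold in edgeR (adjusted p = 0.097) and below it in DESeq2 (adjusted p = 0.0454).

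Among tested genes with 1 annotated transcript, which leaves out ROC5 (class IV), class III had the smallest median ratio of highest to lowest group mean. This median was 1.34, against 1.63 in class II, 1.65 in class I and 1.40 in class IV. The 4 tested class III genes were REVOLUTA, 2 genes named ATHB-15 and ATHB-14-like. Their group means differed by factors of 1.33 to 1.56 between the highest and the lowest of 8 groups. REVOLUTA (LOC101259910) averaged 56.2 ± 6.44 CPM in PI_HC (SD, n = 3), against 46.5 ± 4.57 CPM in C_HC (SD, n = 4). ATHB-15 (LOC101246802) averaged 28.04 ± 0.979 CPM in PI_HC (SD, n = 3), against 19.8 ± 3.84 CPM in PI_PC (SD, n = 4), with no overlap, and the log2 difference of 0.51 (SE 0.17) was not called (edgeR adjusted p = 0.0941). All 4 class III genes had lower means in PI_PC than in C_PC, by 0.12 to 0.29 on the log2 scale and without a call. Without the 3 libraries in doubt, ATHB-14-like (LOC101268331) fell by 0.95 in PI_PC (SE 0.30, edgeR adjusted p = 0.0189).

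In class IV, MERISTEM L1 (LOC101256132), GLABRA 2 (LOC101265216) and PROTODERMAL FACTOR 2-like (LOC101265620) were the most abundant tested members. MERISTEM L1 averaged 57.3 ± 10.4 CPM in PI_HC (SD, n = 3), against 55.05 ± 4.26 CPM in C_HC (SD, n = 4), and GLABRA 2 averaged 34.4 ± 1.34 CPM, against 35.5 ± 6.02 CPM. ROC8-like (LOC101248353), named after a rice gene, was called in 1 comparison. It had 2.09, 4.82, 7.97 and 1.02 CPM in PI_PC, against 0.537 to 1.00 CPM in FI_PC and 0.813 to 1.70 CPM in FP_PC, so that all PI_PC libraries but PI_PC 4 were above both blends. It rose by 2.10 on the log2 scale relative to their mean (SE 0.47, edgeR adjusted p = 0.0062), and by 2.35 (0.000659) without the 3 libraries in doubt. Without PI_PC 3 the value was 1.53 and the call was lost (edgeR adjusted p = 0.0939).

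Counted over the tested members, PI_HC against C_HC gave 2 of 29 calls at an edgeR adjusted p under 0.05, both higher and both of class II, where 2.1% of all tested genes were called in either direction and 0.999% were higher. DESeq2 called 4 members, adding HAT22 (LOC101246982) and ATHB-40-like (LOC101261778), where it called 4.16% of all genes. The same 4 were called by edgeR without the 3 libraries in doubt, where 4.36% of all genes were called. In 6 of 29 members the PI_HC and C_HC libraries did not overlap, compared with 18.6% of all genes. The median log2 fold change was -0.10 in class II, 0.00 in class I, 0.13 in class III and 0.01 in class IV, against -0.00 over all genes. The class II median changed sign to 0.19 with a minimum of 10 counts in all libraries and was 0.00 without PI_HC 4. HAT4 and HOX11-like were 2 of 7 tested class II genes, and the other 5 lay between -0.47 and 0.48.

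In the other 5 filter comparisons no member was called by edgeR. The share of all genes called was 2.26% in FI_PC, 0% in FP_PC, 0.296% in PI_PC, 0% in FI_HC and 0.037% in FP_HC. At an unadjusted edgeR p under 0.05 there were 5 members in FI_PC (15.8% of all genes), 2 in FP_PC (4.03%), 2 in PI_PC (14.5%), 1 in FI_HC (5.19%) and 2 in FP_HC (6.75%). DESeq2 called ATHB-52 in FI_PC, where it called 3.89% of all genes, and no member in the other 4. The groups did not overlap for 2 members in FI_PC (6.93% of all genes), 2 in FP_PC (1.72%), 0 in PI_PC (2.85%), 1 in FI_HC (3.97%) and 0 in FP_HC (5.89%). The 2 in FP_PC were the class IV genes ROC5 (LOC101265103) and PROTODERMAL FACTOR 2-like, higher by 0.65 and 0.39 on the log2 scale. Without the 3 libraries in doubt these values were 0.68 and 0.21, without a call. ROC5 has 2 annotated transcripts and a mean of 19.8 counts per library, so it is poorly measured.

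The comparison of PI_PC with C_PC changed most without the 3 libraries in doubt. It then gave 8 member calls, 6 of them higher, where 28.8% of all genes were called, 13.7% higher and 15% lower. The higher members were both ATHB-40-like genes, HAT22 (LOC101249144), HAT22-like, ROC8-like and ATHB-6 (LOC101257770), with log2 fold changes of 0.62 to 2.75. HAT5 (LOC101255883) fell by 0.55 and ATHB-14-like by 0.95. In the same fit 17 of 18 tested mesophyll markers and 11 of 24 tested epidermis markers were lower in PI_PC, and their part in these calls was not tested.

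**Figure D5:**
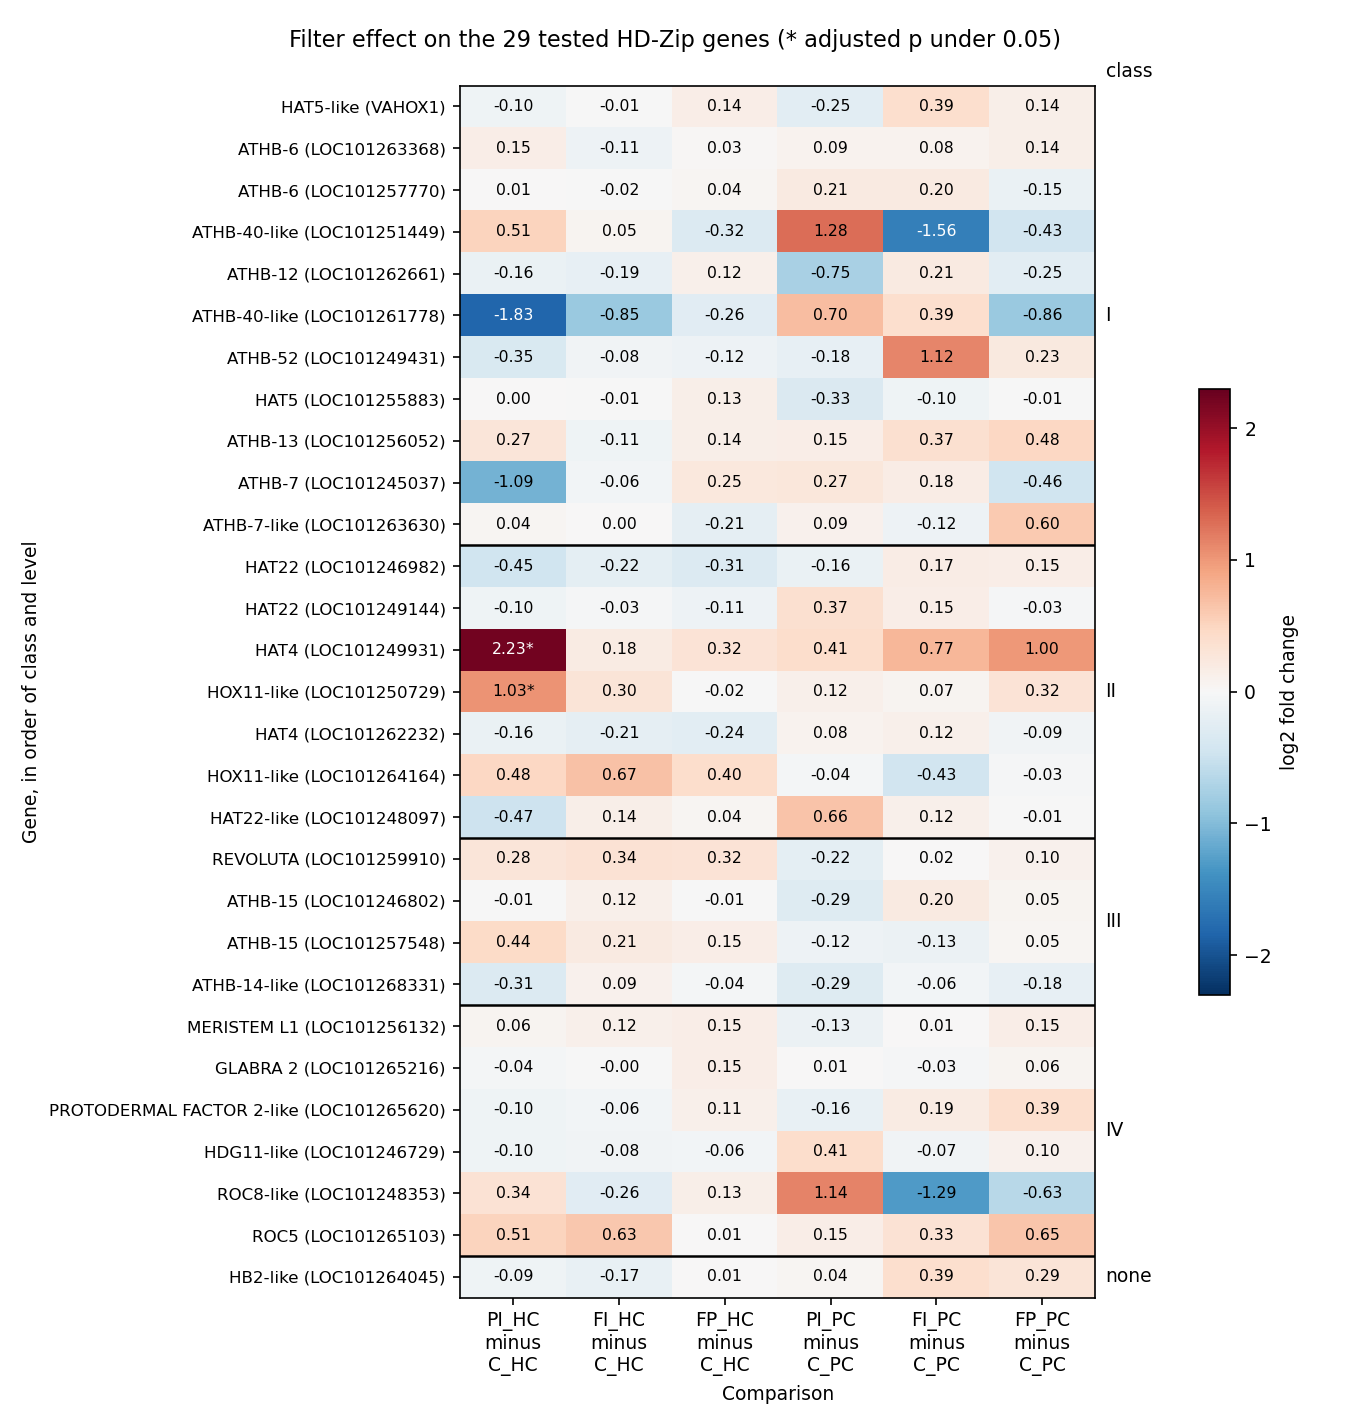
Log2 fold change of each filter over its control filter (columns) for the 29 tested HD-Zip genes (lines), grouped by class and ordered by level, with all 31 libraries. Red is higher and blue lower under the filter, and asterisks mark edgeR adjusted p under 0.05, which only HAT4 (LOC101249931) at 2.23 and HOX11-like (LOC101250729) at 1.03 reached, both in PI_HC.

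Against the mean of the FTAZ blends, 4 of 29 members were called in PI_PC, 2 higher (ATHB-40-like LOC101251449 and ROC8-like) and 2 lower (HAT22 LOC101246982 and VAHOX1), where 9.91% of all genes were called, 5.5% higher and 4.41% lower. DESeq2 called 6, adding ATHB-15 (LOC101246802) and ATHB-52 (LOC101249431) as lower, where it called 12.5% of all genes. In PI_HC the same comparison gave HAT4 alone, where 0.29% of all genes were called. Without the 3 libraries in doubt the counts were 6 members in PI_PC, where 21.3% of genes were called, and 2 in PI_HC, where 0.875% were called.

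Between experiments, no member was called by edgeR under any filter. The share of all genes called was 3.49% for PI_HC against PI_PC, 0.111% for FI_HC against FI_PC, 0.0494% for FP_HC against FP_PC and 0.308% for C_HC against C_PC. At an unadjusted edgeR p under 0.05 there were 10 members for PI (20.4% of all genes), 2 for FI (6.16%), 4 for FP (8.09%) and 3 for C (13.1%). DESeq2 called HAT4, which was higher in PI_HC than in PI_PC by 1.47, and both ATHB-40-like genes, which were lower, where it called 6.77% of all genes. It called no member under the other filters.

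The PI_HC and PI_PC libraries did not overlap for 3 members (13.4% of all genes), namely HAT4, ATHB-15 (LOC101246802) and ATHB-40-like (LOC101261778). FP_HC and FP_PC did not overlap for 6 members (7.27% of all genes), and HAT4 and HOX11-like were among the 3 that were lower in FP_HC. HAT4 had 15.9 to 22.8 CPM in FP_HC, against 26.2 to 58.2 CPM in FP_PC (log2 difference -1.02, SE 0.43, edgeR adjusted p = 0.52). HOX11-like had 12.1 to 23.7 CPM in FP_HC, against 26.6 to 35.5 CPM in FP_PC (log2 difference -0.66, SE 0.25, edgeR adjusted p = 0.414).

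Without the 3 libraries in doubt, 6 members fell in PI_HC relative to PI_PC, where 7.38% of all genes were lower. These were both ATHB-40-like genes, ROC8-like, ATHB-7, HAT22 (LOC101249144) and HAT22-like. In the control filter, LOC101261778 was then higher in C_HC than in C_PC by 1.79 on the log2 scale (edgeR adjusted p = 0.0355), where 1.76% of all genes were called.

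The test of whether a filter effect differed between experiments called no member with edgeR for PI (0.802% of all genes called), FI (1.19%) or FP (0%). At an unadjusted edgeR p under 0.05 there were 7 members for PI (14.7% of all genes), 4 for FI (14.3%) and 1 for FP (3.66%). DESeq2 called LOC101261778 for PI, where it called 2.54% of all genes, and no member for FI or FP. Without the 3 libraries in doubt, 5 members had a lower PI effect in HC than in PC, where 8.52% of all genes did. They were both ATHB-40-like genes, ATHB-7, HAT22 (LOC101249144) and HAT22-like.

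Genes of the light and auxin pathways around HD-Zip class II were mostly not called in PI_HC against C_HC. The tested genes were 3 of 5 phytochromes, which sense red and far-red light, 2 of 6 phytochrome-interacting factors and 4 of 4 phytochrome kinase substrates. Also tested were 6 of 13 HY5 and COP1 genes, 12 of 17 Aux/IAA genes and 1 shade-response inhibitor. Of these genes edgeR called none, where it called 2.1% of all genes. The medians of these lists, in that order, were 0.31, 0.00, 0.18, -0.02, 0.19 and -0.53 on the log2 scale, against -0.00 over all genes. Without the 3 libraries in doubt, 4 of 4 phytochrome kinase substrates, 5 of 12 Aux/IAA genes, 2 of 3 phytochromes and 2 of 6 HY5 and COP1 genes fell in PI_PC relative to C_PC, where 15% of all genes were lower. Of the HY5 and COP1 genes 1 rose, where 13.7% of all genes were higher. With all libraries none of these genes was called in that comparison, where 0.296% of all genes were called. FZY6, a YUCCA-type enzyme of auxin synthesis, was the 1 of 3 tested YUCCA genes called in PI_HC against C_HC. In that comparison 0.999% of all genes were higher. FZY6 averaged 14.7 CPM in PI_HC, against 7.95 CPM in C_HC, and rose by 0.89 on the log2 scale (SE 0.21, edgeR adjusted p = 0.0262). In the PC experiment it averaged 14.4 CPM in PI_PC, against 11.3 CPM in C_PC, without a call. The 2 LITTLE ZIPPER genes, whose products bind class III proteins in Arabidopsis, did not pass the low-count filter. Of 30 tested homeobox genes outside HD-Zip, knotted-1-like 3 (LOC101261052) was the 1 that fell in PI_PC relative to C_PC (by 0.48 on the log2 scale, SE 0.11, edgeR adjusted p = 0.0468), where 0.167% of all genes were lower, and none was called in PI_HC relative to C_HC. Of the same 30 genes, 5 fell and 2 rose in PI_PC without the 3 libraries in doubt, and 1 rose in PI_HC, where 2.1% of all genes were higher.

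Markers of cell types moved with the PI_HC comparison in part. Summed mesophyll markers were 42770 to 46590 CPM in PI_HC, against 32190 to 38160 CPM in C_HC, without overlap. Of 18 tested genes of that list none was called, where 2.1% of all genes were called. Summed epidermis markers were 804 to 1051 CPM in PI_HC, against 961 to 1072 CPM in C_HC, vascular markers 13.1 to 15.9 CPM, against 14.1 to 17.9 CPM, and dividing-cell markers 109 to 191 CPM, against 169.8 to 257 CPM. Counts were 0 in every library for 2 of 31 epidermis markers and 1 of 12 dividing-cell markers. With all libraries, 1 of 18 tested mesophyll markers fell in FI_PC relative to C_PC, where 0.827% of all genes were lower. It was CAB5 (means 26.2 CPM, against 190 CPM, edgeR adjusted p = 0.0439). Its libraries overlapped, at 14.5 to 34.6 CPM in FI_PC, against 8.82 to 276 CPM in C_PC. The median of the 18 markers was -0.90 on the log2 scale. In the fit without the 3 libraries in doubt 14 of 18 fell, where 2.81% of all genes were lower. In FI_PC with all libraries, 1 of 24 tested epidermis markers rose relative to C_PC, where 1.43% of all genes were higher, and their median was 0.02. It was 3-ketoacyl-CoA synthase 20-like (66.3 CPM, against 41.7 CPM, edgeR adjusted p = 0.024). In PI_HC relative to C_HC, 1 of the 24 fell, where 1.1% of all genes were lower, and their median was -0.15. This was 3-ketoacyl-CoA synthase 11-like, at 0 in all PI_HC libraries, against a mean of 0.809 CPM in C_HC (edgeR adjusted p = 0.0262). Its C_HC values were 0.202 to 1.32 CPM, the lowest near the floor, and its mean in C_PC was 0.123 CPM. In bulk leaf, more cells of a type and more RNA per cell cannot be told apart, and the part of these shifts in the HAT4 and HOX11-like values was not tested.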

How the data were processed

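The deposited values are raw fragment counts of 31 leaf libraries. The authors assigned paired reads with featureCounts 2.0.1, reverse-stranded, per the file headers, treating every exon record of the RefSeq SL3.0 annotation as a separate feature. The submitters' processing notes also name FastQC, HISAT2 and DESeq2, without versions. Of 310488 exon records, 181694 share coordinates with another record and hold 0 counts.

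Records were summed to 31142 genes, and 10 records naming no gene, with 0.0112% to 0.379% of counts, were left out. Groups and replicate numbers came from the titles. Members matched the product name, and classes followed fixed name patterns. The members and gene lists were chosen with earlier results of these data known. In a RefSeq table of assembly SLM_r2.1, 63 of 66 members were found. It was not used for coordinates.

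The test was edgeR 4.0.16 (quasi-likelihood, TMM, filterByExpr) in R 4.3.3, with 31 libraries in 1 fit and 15 comparisons, each adjusted over 16209 genes by the Benjamini-Hochberg method at 0.05. It was tested on simulated data. P-values set each group difference against the spread between plants within groups, and do not cover the spread between repeat runs of an experiment. Floors cover counting error only. Named genes were HAT4, class II, called members, the member with the widest change per filter (mean log2 CPM of at least 1), the 5 genes most like HAT4 (log2 CPM with prior count 2) and called genes of the lists. Others are named as examples, chosen after their values were seen. Within groups, 45 pairs of libraries differed by more than sampling noise (chi-square per gene 9.98 to 227). Alternatives were DESeq2 1.42.0 (its size factors, or its Wald test), fits to the groups compared, a block for replicate number, leaving out 1 library at a time or the 3 in doubt, genes with 1 transcript, no filter on low counts, and a minimum of 10 counts in all libraries.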

Additional observations from a re-analysis of the deposited data

Results flagged for a closer look

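Among 77 groups of 4 libraries examined over the 11 named members, 3 values stood apart from the other 3 libraries of their group by Dixon's criterion, which chance meets in about 1 of 20 groups. HAT22 (LOC101249144) was 63.0 CPM in C_PC 4, against 37.4 to 38.8 CPM in the other C_PC libraries. ATHB-40-like (LOC101251449) was 164 CPM in C_PC 4, against 24.4 to 27.7 CPM. HAT4 on chromosome 8 (LOC101262232) was 20.7 CPM in FP_PC 4, against 15.8 to 16.4 CPM. The libraries are 2 of the 3 whose identifiers conflict with their labels.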

How the results depend on the processing

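The count of members called moved with the libraries and the test. With the 3 doubtful libraries left out it was 8 for PI_PC against C_PC (0 with all), 4 for PI_HC against C_HC (2), 2 for PI_HC against the FTAZ mean (1), 1 for C_HC against C_PC (0), 6 for PI_HC against PI_PC (0) and 5 for the PI difference between experiments (0). DESeq2 gave 1 for FI_PC against C_PC, 4 for PI_HC against C_HC, 3 for PI_HC against PI_PC and 1 for the PI difference. Against the FTAZ mean DESeq2 gave 6 for PI_PC (4 with edgeR) and 2 for PI_HC (0.993% of all genes called). The compared groups alone gave 5 for PI_HC against C_HC (4.94% of all genes called) and 1 for FP_HC against FP_PC (0.264%). Against the FTAZ mean they gave 2 for PI_PC (6.58%) and 2 for PI_HC (1.08%). With each library left out in turn the counts were 0 to 2 for PI_PC against C_PC, 0 to 2 for PI_HC against C_HC, 1 to 7 for PI_PC and 0 to 1 for PI_HC against the FTAZ mean, 0 to 3 for PI_HC against PI_PC and 0 to 1 for the PI difference. Shares of all genes in the fits with 1 library left out are not given, so these ranges are not read as a result about the members. The 3 doubtful libraries are from PC, so comparisons within HC lost none of their libraries without them. The cause of the changes was not tested.

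Sign changes arose with 1 library left out. HAT4 ranged from -0.208 (without PI_PC 2) to 0.766 in PI_PC against C_PC, and from -0.111 (without FI_HC 4) to 0.365 in FI_HC against C_HC. In PI_PC against C_PC, ATHB-6 (LOC101257770) ranged from -0.019 (without PI_PC 2) to 0.446, and ATHB-14-like (LOC101268331) from -0.697 to 0.021 (without C_PC 3).

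The replicate numbers did not pair the plants (mean correlation of same-numbered deviations -0.196 to 0.113). With the number as a block, PI_HC against C_HC gave 2 member calls and PI_PC against the FTAZ mean 4. The share of all genes called in that fit is not given.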
